A study of Homo sapiens with 9 samples.

Results

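PYGL encodes the liver isoenzyme of glycogen phosphorylase, and it was followed here together with its paralogs PYGB and PYGM and with 6 other genes of glycogen synthesis and breakdown, GYS1, GBE1, PHKA1, PGM1, UGP2 and GYG1. These 9 genes were taken by symbol from the 78986 genes of the count table. PYGL was chosen because its RNA was lower in both p53 mutant lines than in the WT p53 line in these same libraries, so its differences from WT are given as a description, with no test. The other genes were chosen as its paralogs and pathway partners.

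The libraries measured mRNA of HEK293T cells, a human embryonic kidney line (labelled as epithelial) that carries the large T antigen of a simian virus, a protein that binds p53. In each of the 3 groups the cells stably overexpressed a p53 protein from a lentiviral vector under puromycin selection, which all groups shared: WT p53, the G245S mutant or the R273H mutant, with 3 biological replicates each and the WT line as control. No line without a p53 vector was among the libraries, and the sources used here do not say whether a line was 1 clone, so line and allele cannot be told apart. The p-values measure the spread between replicates of these 3 lines.

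Glycogen is the branched glucose store of animal cells. It is built from glucose 1-phosphate that UGP2 activates to UDP-glucose, primed on glycogenin (GYG1), extended by glycogen synthase (GYS1) and branched by GBE1, and it is released again as glucose 1-phosphate by the phosphorylases, which phosphorylase kinase switches on. PYGL is the form known from liver, PYGB the form known from brain and PYGM the form known from muscle, and PGM1 links glucose 1-phosphate to glycolysis through glucose 6-phosphate.

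WT replicate 3 held 1486315 counts, below the limit of 4096044 (0.5 times the median of the other 8 libraries), and was left out of the fits. The 8 fitted libraries held 7325514 to 9667306 counts. That WT library also stood apart in its markers: the summed level of 5 epithelial genes (EPCAM, CDH1, KRT8, KRT18 and KRT19) was 265 CPM (counts scaled to library size) there against 73.2 to 84.3 CPM in the others, and the leukocyte pair PTPRC and CD74 summed to 9.77 CPM against 0.491 to 1.77 CPM. In the fitted libraries the epithelial sum was 73.2 to 80.0 CPM in WT and 73.5 to 77.1 CPM in G245S. It was highest in R273H, at 82.9 to 84.3 CPM, and its part in the results was not tested. KRT18 alone held 58.6 to 68.6 CPM in the fitted libraries, which was most of this sum. Hepatocyte markers (ALB, APOA1, TTR and SERPINA1) summed to 0.229 to 0.768 CPM in the fitted libraries with SERPINA1 at 0. In WT replicate 3 they summed to 6.28 CPM, from 4 counts of ALB and 5 of APOA1. The part of these markers in the PYGL level of that library was not tested. In the fitted libraries 6 skeletal muscle markers summed to 0.736 to 3.27 CPM with MYH1 at 0, against 4.89 CPM in WT replicate 3. The kidney lineage genes PAX2 and PAX8 summed to 2.41 to 4.97 CPM in the fitted libraries, which was mostly PAX2. PAX8 held 2 counts in WT replicate 1, 1 count in R273H replicate 3 and 0 in the other fitted libraries. Values below are CPM after 1 scaling by the trimmed mean of M-values (TMM) over all 9 libraries, and each fold change is on the log2 scale from the count model fitted to all genes of its comparison.

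The PYGL gene (ENSG00000100504) lies on chr14:50857891-50944483 of GRCh38 on the minus strand, and PYGB (ENSG00000100994) on chr20:25248085-25298012 on the plus strand. The 250 bases before each start are printed to set the start region of PYGL beside that of its expressed paralog. They come from RefSeq on GRCh38.p14, read 5′ to 3′ on the gene's own strand, at chr14:50944484-50944733 for PYGL and chr20:25247835-25248084 for PYGB. Capitals mark GGGCGG, the core of a GC box, on either strand, and matches to the p53 half-site.
PYGL: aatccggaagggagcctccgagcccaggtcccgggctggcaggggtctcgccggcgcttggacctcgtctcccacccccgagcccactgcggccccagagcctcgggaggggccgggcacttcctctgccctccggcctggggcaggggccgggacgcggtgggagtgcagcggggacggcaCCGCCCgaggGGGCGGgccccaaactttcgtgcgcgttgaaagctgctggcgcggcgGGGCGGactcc
PYGB: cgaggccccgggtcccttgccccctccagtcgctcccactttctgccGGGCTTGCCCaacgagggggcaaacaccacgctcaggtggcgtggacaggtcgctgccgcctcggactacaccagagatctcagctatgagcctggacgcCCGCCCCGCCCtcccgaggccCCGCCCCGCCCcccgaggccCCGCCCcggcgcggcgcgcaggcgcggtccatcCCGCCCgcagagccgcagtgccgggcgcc
The PYGL window had a GC content of 76% and the PYGB window of 76.4%, against a median of 58% over all promoters in the RefSeq table. PYGL held 3 matches to GGGCGG and PYGB held 6, overlapping matches included, and 42.6% of 35116 promoters of this length held at least 1. The p53 half-site had 0 matches in the PYGL window. PYGB had 1, which began 203 bases before its start, and PHKA1 had 1, which began 200 bases before its start. Over all promoters 5.57% held a half-site. ACGTG, a form of the core of the hypoxia response element, searched on both strands, had 0 matches in PYGL and PYGB. Of all promoters 18.5% held at least 1. The form GCGTG was not searched, so these values do not cover every form of the core. A match or its lack describes these letters only. Of the 9 genes 8 had an entry, and PYGM had none.

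PYGL RNA was lower in every mutant library than in every WT library. The fitted WT libraries held 96.7 and 88.0 CPM (844 and 688 counts). The G245S libraries held 59.1, 60.9 and 61.6 CPM (582, 474 and 502 counts), and the R273H libraries held 54.3, 57.2 and 53.5 CPM (473, 420 and 452 counts). The 6 mutant libraries thus lay within a narrow band below both WT libraries, with no overlap. The mean was 92.4 ± 6.11 CPM in WT (SD, n = 2), 60.5 ± 1.27 CPM in G245S (SD, n = 3) and 55.0 ± 1.92 CPM in R273H (SD, n = 3). In G245S the level was 0.658 times that of WT, a log2 fold change of −0.60 with an SE of 0.0871 and a 95% interval of −0.79 to −0.42. In R273H it was 0.596 times that of WT, a log2 fold change of −0.75 with an SE of 0.0872 and a 95% interval of −0.93 to −0.56. Both differences used the same WT libraries, and their intervals take no account of the choice of PYGL. As background to the choice of this gene, 10.8% of the genes tested in G245S against WT had every mutant library below both fitted WT libraries. In R273H against WT the share was 10.5%. These shares leave out WT replicate 3, and nothing is read from them for PYGL itself. PYGL had fractional counts in 7 of 9 libraries, so some of its reads also mapped elsewhere, and its level is uncertain to that extent. In these bulk libraries fewer cells that express the gene and less RNA per cell cannot be told apart.

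WT replicate 3, which was not fitted, held 107 PYGL counts or 74.7 CPM, with an exact Poisson 95% interval of 61.2 to 90.2 CPM that covers counting error only. It lay below both other WT libraries and above all 6 mutant libraries, and its interval reached down to the highest G245S library. With all 3 WT libraries in the fit the log2 fold change was −0.55 in G245S and −0.69 in R273H. With WT replicates 2 and 3 alone it was −0.46 and −0.60. Over 16 alternative settings per comparison it ran from −0.67 to −0.46 in G245S and from −0.81 to −0.60 in R273H. Since all mutant libraries lay below all WT libraries, leaving out or adding libraries could not turn the sign, and only the size is read.

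The comparison of the mutants with each other did not enter the choice of PYGL and was tested. The 3 R273H libraries lay below the 3 G245S libraries (highest R273H 57.2 CPM, lowest G245S 59.1 CPM), as did those of 4.38% of all genes tested in this comparison. The log2 fold change was −0.15 with an SE of 0.0742 and a 95% interval of −0.30 to 0.01. EdgeR's quasi-likelihood test gave an unadjusted p of 0.0695 and a Benjamini-Hochberg adjusted p of 0.994, so the difference between the mutants did not pass the test, and the interval still allows a lower level in R273H. Of the 15614 genes tested here edgeR called 0 (0%) at an adjusted p under 0.05, with 741 at an unadjusted p under 0.05 and 1 called by DESeq2.

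**Figure D1:**
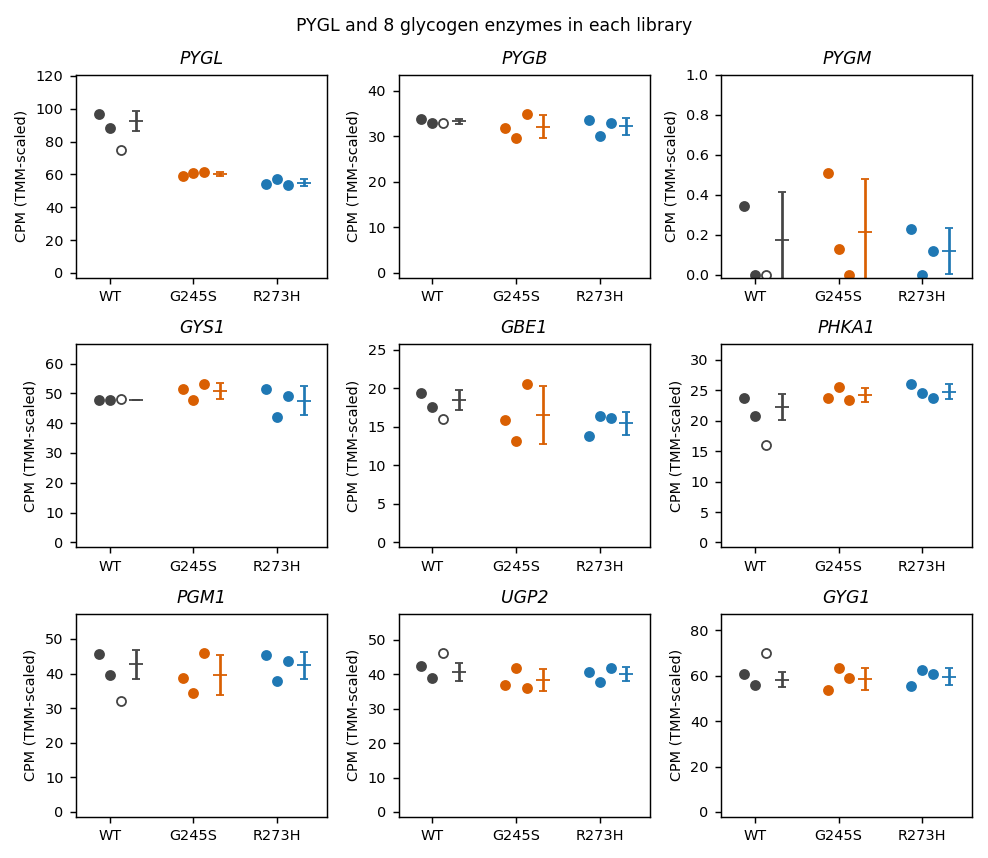
Level of each of the 9 genes in CPM after TMM scaling (y axis, from 0) in the WT, G245S and R273H lines, 1 point per library; bars at the right of each group are the mean ± SD of the fitted libraries (2 WT, 3 per mutant, cut at 0 for PYGM), and the open WT point is the shallow replicate 3. PYGL lay at 88.0 to 96.7 CPM in the fitted WT libraries and at 53.5 to 61.6 CPM in the 6 mutant libraries, while the groups overlapped in most of the other panels.

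PYGB, the paralog that serves brain and many other tissues, lay at about the same level in all 3 lines. It held 33.7 and 32.9 CPM in the fitted WT libraries and 32.8 CPM in WT replicate 3. The G245S libraries held 31.9, 29.7 and 34.8 CPM and the R273H libraries 33.5, 30.1 and 32.9 CPM, so all 3 groups overlapped. The log2 fold change was −0.04 in G245S (SE 0.103, 95% interval −0.26 to 0.18) and −0.04 in R273H, with Benjamini-Hochberg adjusted p of 0.970 and 0.997 by edgeR's quasi-likelihood test. PYGM, the muscle form, was at 0 to 5 counts per library with 12 counts over all 9 libraries, too few to be tested in any comparison. Counts of 3, the upper limit that a count of 0 allows, stood for 0.305 to 0.408 CPM in the fitted libraries, so a difference in PYGM was not detectable at this depth.

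Per kilobase of the length listed for each gene in the count table, PYGL was the most abundant phosphorylase RNA in all 9 libraries. It made up 73.6% and 72.4% of the phosphorylase RNA of the fitted WT libraries and 69.1% of WT replicate 3. The share was 64.2%, 66.7% and 63.4% in G245S and 61.2%, 65.1% and 61.4% in R273H, so the mutants overlapped each other and lay below WT. The summed phosphorylase level was 27.8 ± 1.52 CPM per kb in WT (SD, n = 2), 20.6 ± 0.693 CPM per kb in G245S (SD, n = 3) and 19.3 ± 0.164 CPM per kb in R273H (SD, n = 3). Since PYGL carries most of this sum and was chosen for its level, the sum and the share are descriptions too.

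**Figure D2:**
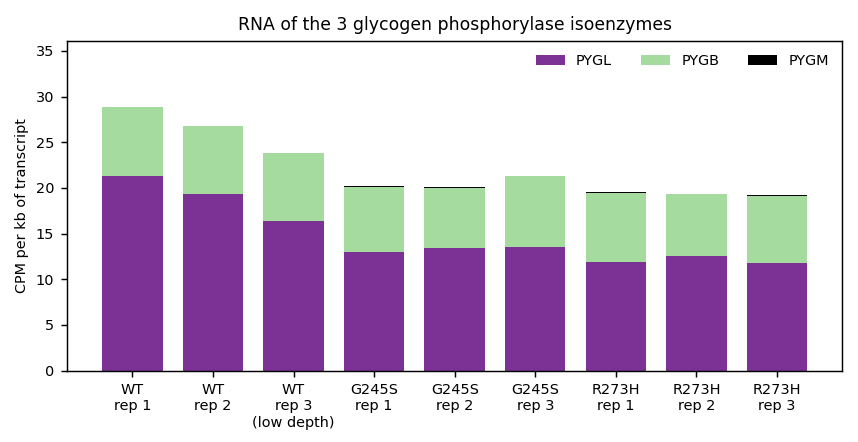
Stacked bars of PYGL, PYGB and PYGM in CPM per kb of the length listed for each gene (y axis) in each of the 9 libraries. The PYGL part was 19.4 to 21.3 CPM per kb in the fitted WT libraries and 11.8 to 13.5 CPM per kb in the mutants, the PYGB part stayed between 6.66 and 7.82 CPM per kb, and PYGM was too low to see in most bars.

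Over the 8 fitted libraries the order of mean levels per kilobase was PYGL (14.6 CPM per kb), GYS1 (11.5), PGM1 (10.2), GYG1 (7.79), PYGB (7.28), UGP2 (5.82), PHKA1 (3.77), GBE1 (3.57) and PYGM (0.0356). That order depends on the length listed for each gene. In mean CPM, without that length, GYG1 (58.8) lay above GYS1 (48.8) and PGM1 (41.4), and UGP2 (39.5) above PYGB (32.4). Per kilobase, the library ranges of GYS1 and PGM1 overlapped, as did those of GYG1 and PYGB and those of PHKA1 and GBE1. PYGL and GYS1 were apart in WT, with 19.4 to 21.3 against 11.2 to 11.3 CPM per kb. They were closer in G245S, with 13.0 to 13.5 against 11.3 to 12.5 CPM per kb, and overlapped in R273H, with 11.8 to 12.6 against 9.95 to 12.2 CPM per kb.

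The 4 genes of the synthetic arm gave no call. GYS1, the glycogen synthase of muscle and most other tissues, held 47.7 and 47.7 CPM in the fitted WT libraries and 48.2 CPM in WT replicate 3. It held 51.5, 47.9 and 53.2 CPM in G245S and 51.5, 42.2 and 49.0 CPM in R273H. The G245S libraries were all just above the fitted WT libraries, as were those of 11.3% of genes tested in this comparison, but the lowest of them was below WT replicate 3, and the R273H libraries spanned WT. Its log2 fold change was 0.10 in G245S (95% interval −0.09 to 0.30) and 0.0023 in R273H (95% interval −0.21 to 0.22). GBE1, the branching enzyme, held 19.4 and 17.5 CPM in WT, 15.8, 13.2 and 20.6 CPM in G245S and 13.8, 16.5 and 16.1 CPM in R273H. All 3 R273H libraries lay below the fitted WT libraries, whereas G245S replicate 3 lay above them, and the unfitted WT replicate 3 at 16.1 CPM lay within the R273H range. The log2 fold change of GBE1 was −0.15 in G245S (SE 0.162) and −0.26 in R273H (SE 0.128, 95% interval −0.53 to 0.01), with an unadjusted p of 0.0608 and an adjusted p of 0.849 by edgeR's quasi-likelihood test in R273H. The G245S value rested on single libraries, at −0.019 without G245S replicate 2 and −0.33 without G245S replicate 3. UGP2, which makes UDP-glucose, lay at 36.1 to 42.5 CPM and GYG1, the primer protein, at 53.6 to 63.4 CPM over the 8 fitted libraries, each with overlapping groups. Their log2 fold changes were −0.08 and 0.01 in G245S and −0.02 and 0.03 in R273H.

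On the breakdown side, PHKA1, a regulatory subunit of phosphorylase kinase, held 23.7 and 20.7 CPM in the fitted WT libraries and 16.1 CPM (23 counts) in WT replicate 3. It held 23.8, 25.6 and 23.4 CPM in G245S and 26.1, 24.5 and 23.7 CPM in R273H, a range that overlapped that of the fitted WT libraries. The log2 fold change was 0.13 in G245S (95% interval −0.11 to 0.37) and 0.16 in R273H (95% interval −0.09 to 0.40), and neither passed the test. Both moved with the WT libraries, to 0.24 and 0.26 without WT replicate 1, to 0.035 and 0.063 without WT replicate 2 and to 0.31 and 0.34 with WT replicates 2 and 3. PGM1, the mutase between glucose 1-phosphate and glucose 6-phosphate, ranged from 34.3 to 45.9 CPM over the 8 fitted libraries with overlapping groups and was at 32.1 CPM in WT replicate 3, and its log2 fold changes were −0.10 and −0.0055.

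As a group, 7 of the 8 genes beside PYGL were tested, all but PYGM. Of these 7, 0 were called in G245S against WT (smallest adjusted p 0.890), 0 in R273H against WT (smallest 0.849) and 0 in R273H against G245S (smallest 0.994). These values come from edgeR's quasi-likelihood fit, adjusted by Benjamini-Hochberg over all genes. None had an unadjusted p under 0.05, and DESeq2 also called 0. The background was low too: 20 of 15893 genes (0.126%) were called in G245S against WT and 22 of 16022 (0.137%) in R273H against WT, so 0 of 7 does not set these genes apart from all genes tested. The median over the 7 was a log2 fold change of −0.04 in G245S and −0.0055 in R273H, beside 0.0034 and 0.0023 over all genes tested in these comparisons. In R273H against G245S it was 0.01, beside −0.0048 over all genes. The medians against WT changed sign on leaving out 1 library, to 0.0085 in G245S and 0.054 in R273H without WT replicate 1, and that of R273H was −0.063 without WT replicate 2. By sign, 4 of 7 were lower in each mutant than in WT, with signs against WT that changed under at least 1 alternative setting for all but GBE1 and PHKA1. Against the fitted WT libraries, 1 of the 7 lay wholly above WT in G245S (GYS1), as did 11.3% of all genes, and 1 wholly below WT in R273H (GBE1), as did 10.5% of all genes. Neither was apart from WT once WT replicate 3 was counted. None lay wholly above the fitted WT libraries in R273H, where 10.2% of all genes did. Between the mutants all 7 overlapped, and 4.63% of genes lay wholly higher in R273H. Over the 7 genes and both comparisons with WT, the lower ends of the intervals ran down to −0.53 and the upper ends up to 0.40 on the log2 scale. Each interval holds for 1 gene in the main fit, and both comparisons share the WT libraries, so these ends are not a joint bound.

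**Figure D3:**
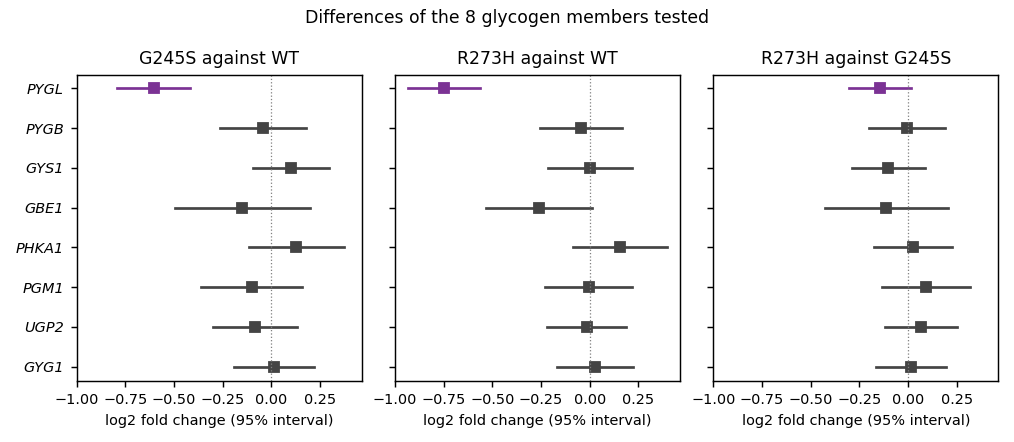
Log2 fold change (square) with its 95% interval (line) for PYGL and the 7 other genes tested, in G245S against WT, R273H against WT and R273H against G245S; the dotted line is no difference. PYGL, chosen for its difference from WT, sat at −0.60 and −0.75 in the first 2 panels. Its intervals there take no account of that choice and are description only. The intervals of the 7 other genes crossed 0 in every panel, as did that of PYGL in R273H against G245S.

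A wider list of 37 genes covered the second glycogenin and synthase, a lysosomal enzyme, the remaining kinase subunits, protein phosphatase 1 with its glycogen-targeting subunits, glycogen synthase kinase, laforin and malin, and the enzymes that make or use glucose 6-phosphate. In the libraries 28 were expressed highly enough to be tested. The other 9 included GYS2, PPP1R3A, PPP1R3C, PPP1R3G, NHLRC1, G6PC1, G6PC2 and HK3, of which GYS2, the liver synthase, G6PC1 and G6PC2, glucose 6-phosphatases, and HK3 had 0 counts in every library. Of the 28, 0 were called in any of the 3 comparisons by edgeR, and 0 by DESeq2. Over all genes tested edgeR called 0.126%, 0.137% and 0%, so 0 of 28 does not set these genes apart. By sign, 15 (53.6%) were lower in G245S than in WT, 22 (78.6%) in R273H than in WT and 17 (60.7%) in R273H than in G245S, beside 49.2%, 49.3% and 51.7% of all genes tested. The median log2 fold changes were −0.02, −0.06 and −0.04. Without WT replicate 1 the first became 0.038 and the second −0.027, and with WT replicates 1 and 3 the second became 8.9e-06.

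At an unadjusted p under 0.05 there were 0, 1 and 2 of these 28 genes, beside 6.66%, 6.11% and 4.75% of all genes tested. The 1 in R273H against WT was HK2, a hexokinase that makes glucose 6-phosphate. It held 27.3 and 23.5 CPM in the fitted WT libraries, 20.9 CPM (30 counts) in WT replicate 3, 22.7, 23.2 and 31.6 CPM in G245S and 20.8, 17.7 and 21.7 CPM in R273H. The R273H libraries lay below both fitted WT libraries, as did those of 10.5% of all genes tested. They also lay below all G245S libraries, as did those of 4.38%. Among the 28 genes, 2 lay wholly lower and 3 wholly higher in G245S against the fitted WT libraries, beside 10.8% and 11.3% of all genes. In R273H against the fitted WT libraries the counts were 4 and 0, beside 10.5% and 10.2%. In R273H against G245S they were 3 and 0, beside 4.38% and 4.63%. Both R273H comparisons used the same R273H libraries. The unfitted WT library of HK2 lay within the R273H range. Its log2 fold change was −0.34 in R273H against WT (SE 0.123, adjusted p 0.703) and −0.37 in R273H against G245S (SE 0.131, adjusted p 0.956), both by edgeR's quasi-likelihood test. The second in R273H against G245S was PHKA2, the liver form of the kinase subunit that PHKA1 encodes in muscle. It held 17.4, 14.4 and 13.5 CPM in G245S and 13.5, 11.0 and 12.0 CPM in R273H, and its log2 fold change was −0.32 (SE 0.134, adjusted p 0.994 by edgeR's quasi-likelihood test). Its WT libraries, at 13.7 and 11.8 CPM, overlapped R273H. GAA, the lysosomal glucosidase, had log2 fold changes of −0.05 in G245S and −0.13 in R273H against WT.

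**Figure D4:**
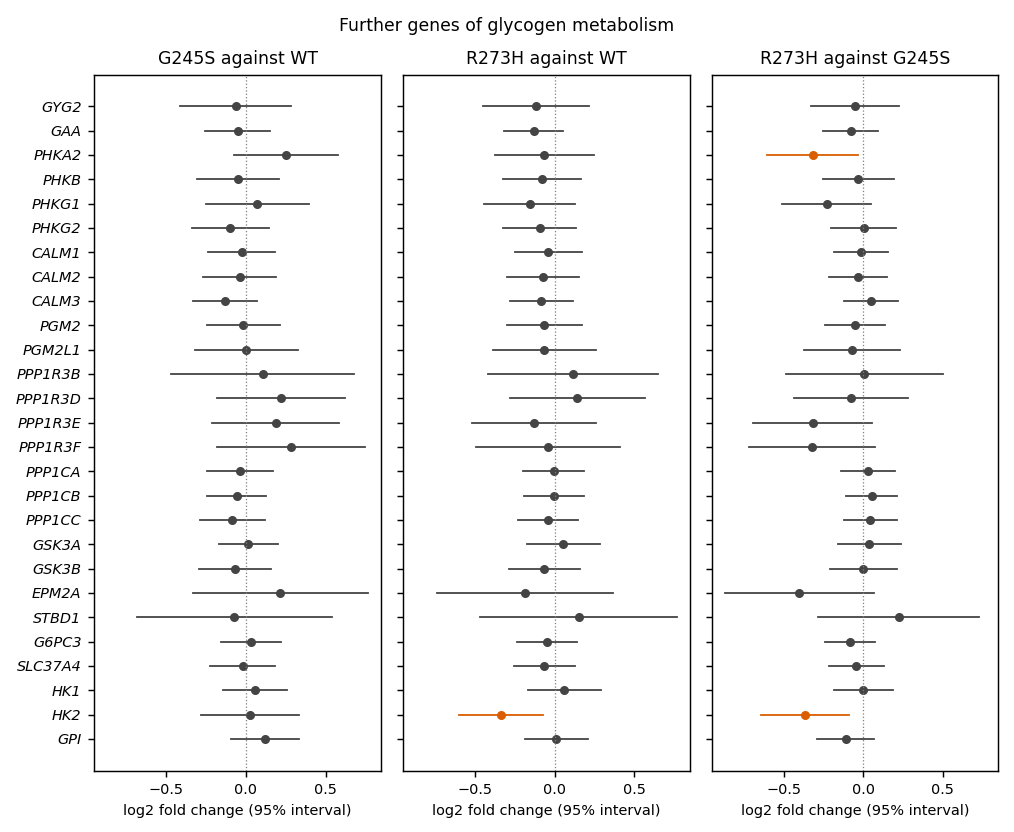
Log2 fold change (point) with its 95% interval (line) for all but 1 of the 28 further glycogen genes tested, in the 3 comparisons; orange marks an unadjusted p under 0.05, and the dotted line is no difference. HK2 in both R273H comparisons and PHKA2 in R273H against G245S are orange, and no gene shown passed the adjusted threshold.

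The genes around PYGL were not called, where edgeR called 0.126%, 0.137% and 0% of all genes tested in the 3 comparisons. The table listed 35 other genes within 500 kb, of which 9 were tested in at least 1 comparison. NIN, a centrosomal protein gene whose near end lies 26.7 kb away, had log2 fold changes of 0.14 (SE 0.140) in G245S and 0.03 (SE 0.117) in R273H. TRIM9, a ubiquitin ligase gene 30.8 kb away on the other side, had 0.25 (SE 0.179) and 0.05 (SE 0.149). SAV1, a scaffold of the Hippo pathway, had 0.12 and 0.07, MAP4K5, a kinase gene, −0.08 and −0.11, and TMX1, a thioredoxin-related gene, 0.02 and −0.04. ATL1, at 3.43 CPM, had −0.28 (SE 0.259) and −0.22 (SE 0.279). RN7SL452P and 2 genes without a symbol lay under 2 CPM. ENSG00000258857, at 1.29 CPM, had −0.58 (SE 0.437) and −0.82 (SE 0.398), about as large as the differences of PYGL but not past the test (adjusted p 0.855 and 0.835 by edgeR's quasi-likelihood test). ENSG00000269906 had −0.27 (SE 0.394) and −0.29 (SE 0.409), and RN7SL452P had 0.80 (SE 0.433) in G245S and was not tested in R273H against WT. ABHD12B lies within PYGL on the opposite strand and had 0 counts in all 9 libraries, and a divergent unnamed gene that starts 57 bases from the PYGL start had at most 1 count.

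**Figure D5:**
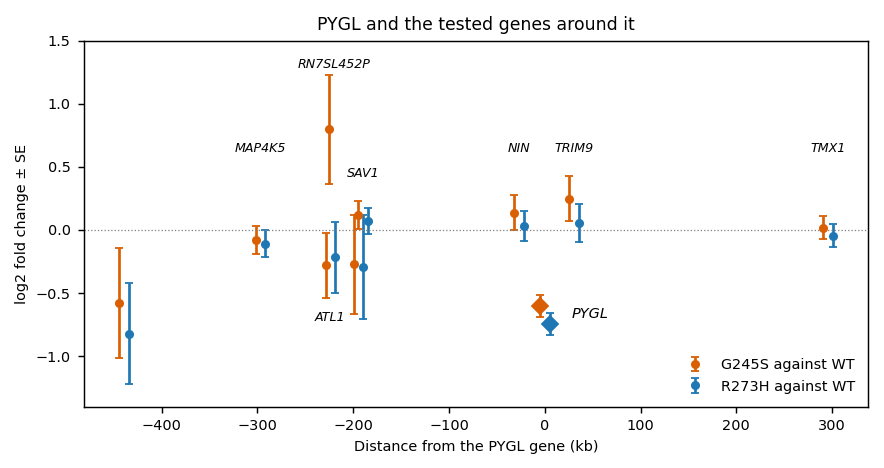
Log2 fold change ± SE against distance from the PYGL gene in kb (negative toward lower coordinates, to the nearest gene end) for the genes tested within 500 kb; diamonds are PYGL, and the points of the 2 comparisons are shifted sideways by 5 kb each. PYGL lay at −0.60 and −0.75, and its nearest tested neighbours NIN and TRIM9 at 0.03 to 0.25.

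Across the 8 fitted libraries the genes whose log2 CPM followed PYGL most closely, among 11624 genes with a mean of at least 5 CPM, were DDB2 (Pearson r = 0.989), EMD (0.987), DFFA (0.986), MDM2 (0.973) and TYMS (0.970). DDB2 encodes a DNA damage recognition protein, EMD emerin, DFFA a nuclease inhibitor, MDM2 a ubiquitin ligase and TYMS thymidylate synthase. With WT replicate 3 added the correlations were 0.930, 0.882, 0.901, 0.972 and 0.966. The libraries share 3 cell lines and 1 scaling, so differences between the lines enter each of these values. PYGL was chosen for its difference from WT, so other genes lower in both mutants rank high through that choice. DDB2 averaged 25.8 CPM in WT, 9.78 CPM in G245S and 8.42 CPM in R273H, and MDM2 81.7, 46.0 and 43.6 CPM. Among the 7 other tested genes of the 9, GBE1 had the highest correlation with PYGL (0.52), followed by PYGB (0.27), UGP2 (0.20), PGM1 (0.13), GYG1 (−0.02), GYS1 (−0.15) and PHKA1 (−0.61). These are descriptions over 8 libraries.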

How the data were processed

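The authors deposited 1 table of estimated counts for 9 RNA-seq libraries (3 each of WT, G245S and R273H). Per the labels and the study's methods, mRNA was reverse transcribed and tagmented, reads were trimmed with fastp 0.24.0, aligned to GRCh38 with STAR 2.7.11, collapsed by molecular identifier, and counted on the matching strand over exons and 3′ UTRs with featureCounts (Subread 2.1.1), with multi-mapping reads split as fractions. Split reads gave PYGL fractional values in 7 libraries, so part of its counts is shared with near-identical sequence elsewhere. How evenly reads cover a transcript is not given in the sources used here, and it affects values per kilobase. The table's 9 CPM columns were not used.

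Counts were rounded to whole numbers. Each comparison was fitted across all genes with edgeR 4.0.16 (R 4.3.3; filterByExpr, TMM, quasi-likelihood test, Benjamini-Hochberg adjustment, threshold 0.05), with samples grouped by the labels. As in the study, 1 WT library of low depth was left out. Intervals of fold changes are at 95% from the model. The edgeR fits against WT were run on simulated counts with changes larger than those of PYGL, so smaller differences were not checked this way. Alternatives were DESeq2 1.42.0, other scalings, filters, WT libraries, a replicate term and leaving out each library. Members and gene lists were chosen with earlier results of these data known. Named were the 9 genes, further glycogen genes that passed or had an unadjusted p under 0.05 (at most 3 per comparison by size of change), tested genes within 500 kb of PYGL, and the 5 genes best correlated with it over the fitted libraries (log2 CPM, prior count 1). GAA was named for its role, after its values were seen. The level of the p53 transgene and the values of some listed genes are not reported here.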

Additional observations from a re-analysis of the deposited data

How the results depend on the processing

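PYGL was lower than WT in all 16 alternatives of each comparison. Its values in the mutants all lay below those in WT, for which it was chosen, so this sign adds no support for PYGL. Its log2 fold change moved most with the WT libraries used: with WT replicates 2 and 3 it was −0.46 in G245S and −0.60 in R273H, and with a replicate block and all 3 WT libraries −0.53 and −0.66. Leaving out 1 library at a time gave −0.67 to −0.53 in G245S, the weaker end without WT replicate 1. The lone WT library left in such a fit is assumed to vary like the other group. With the replicate block alone PYGL stood at −0.61, −0.73 and −0.15 in the 3 comparisons, and the block changed no call. The correlation of same-numbered deviations ran from −0.13 to 0.26, highest for replicate 2 of R273H and G245S. No test of pairing was run, and the deviations of the 2 fitted WT libraries mirror each other, so pairing was not excluded. The main fits treated the libraries as unpaired. Of the 7 other genes tested and the further glycogen genes, 0 were called in any setting. In the main fits 0.126%, 0.137% and 0% of all genes were called in the 3 comparisons.

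The small values of the other genes changed sign in 46 alternatives and kept it in 269. In G245S against WT, PGM1 became 0.078 with WT replicates 2 and 3. GYG1 became −0.045 with all 3 WT libraries, −0.12 with WT replicates 1 and 3, −0.043 with WT replicates 2 and 3 and −0.064 with the block and all 3. In R273H against WT, GYS1 became −0.0044, −0.0070, −0.0054 and −0.017 in those 4 settings, −0.0025 without a filter, −0.025 with the replicate block and −0.00080 by DESeq2. PGM1 became 0.051, 0.026, 0.18 and 0.078 in the same 4, 0.00078 with upper-quartile scaling and 0.019 with library size alone, and UGP2 became 0.0083 with library size alone. GYG1 became −0.027, −0.10, −0.022 and −0.050 in those 4. In R273H against G245S, PYGB became 0.0064 with upper-quartile scaling, 0.022 with library size alone, 0.00039 with the stricter filter and 0.0044 in 1 fit of all groups, and GYG1 became −0.00043 without a filter. Leaving out 1 library gave, in G245S against WT, −0.11 to 0.010 for PYGB, −0.22 to 0.0085 for PGM1 and −0.047 to 0.079 for GYG1. In R273H against WT it gave −0.062 to 0.079 for GYS1, −0.10 to 0.10 for PGM1, −0.080 to 0.054 for UGP2 and −0.030 to 0.092 for GYG1. In R273H against G245S it gave −0.057 to 0.056 for PYGB, −0.24 to 0.068 for GBE1, −0.015 to 0.059 for PHKA1 and −0.044 to 0.071 for GYG1. GBE1 in G245S against WT was −0.07 without WT replicate 1 and −0.33 with the replicate block. Leaving out 1 library, the median of the 7 genes ran from −0.063 to 0.0085, −0.063 to 0.054 and −0.015 to 0.030 in the 3 comparisons, and that of the further genes from −0.039 to 0.038, −0.081 to −0.027 and −0.065 to −0.024. The cause of these changes was not tested. HK2 in R273H against WT was −0.22 without WT replicate 1 and −0.19 with WT replicates 2 and 3, in R273H against G245S it was −0.20 without G245S replicate 3, and PHKA2 −0.19 without G245S replicate 1. Adding WT replicate 3 lowered the correlation of EMD with PYGL to 0.882.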
